A study of Mus musculus with 12 samples.

Results

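Primary podocyte cultures kept for 7 days with tamoxifen were compared with mock-treated cultures of the same day, 2 arrays against 2, paired by the replicate number in the sample titles. These are 4 of the 12 samples of the series, and the genes tested were the 14000 named genes with a probe that 2 or more of the 4 arrays measured well above background. All samples, the mock cultures included, came from adult mice that carry an inducible Cre recombinase and floxed Foxc1. The other floxed gene carries a different number in each genotype label, from Foxc2 up to Foxc13. The series title names Foxc1 and Foxc2. Mock cultures therefore have the floxed alleles and the recombinase without the drug, and treated cultures have the drug along with any recombination it caused, which cannot be told apart. The labels call the agent tamoxifen, while the design text speaks of its active form. Podocytes had been expanded from isolated glomeruli before treatment. The promoter of the Cre is not given in the sources used here, and the labels do not say whether the numbered cultures were separate, so p-values measure the spread between these samples, which may be technical. The other samples were day 4 cultures treated in the same way, and glomeruli of control mice given no agent and of mice that received tamoxifen injections, daily for 3 days from 8 weeks of age.

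Podocytes cover the outside of the glomerular capillaries with interlocking foot processes, and the slit diaphragm between those processes is part of the kidney's filtration barrier. Foxc1 and Foxc2 are closely related forkhead transcription factors, expressed by podocytes from development into adult life. A floxed gene is one that Cre recombinase can excise, and the inducible recombinase used here stays inactive until its ligand is given.

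Both target genes fell. Values are log2 processed signal minus the 75th percentile of that array, so a value of 0 is the signal that 75 of 100 probes lie below. Foxc1 stood at 2.62 and 4.33 in mock replicates 1 and 2 and at -8.20 and -3.26 in tamoxifen replicates 1 and 2. The groups did not overlap, and tamoxifen replicate 1 was not well above background. Foxc1 fell by 9.21 on the log2 scale (SE 1.01, limma with Benjamini-Hochberg adjusted p = 0.0164). The size of that fall is uncertain, since it includes the array below background: it was -8.07 with that array set to its lowest signal well above background, an alternative chosen after seeing the data. Foxc1 gave -10.5 to -7.88 with single culture arrays left out and passed the threshold in 4 of those 8 fits. Foxc2 stood at 1.38 and 1.42 in the mock cultures and at -7.80 and -7.37 in the treated ones. Neither treated array was well above background for Foxc2, so its size is a bound, and it was at least 151-fold lower (adjusted p = 0.00677). Whether either probe lies within the floxed part of its gene was not tested.

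With a Benjamini-Hochberg adjusted p under 0.05 in limma, 979 genes (6.99% of those tested) were called at day 7, of which 436 (3.11%) were higher with tamoxifen and 543 (3.88%) were lower. Beside the targets, the largest falls included Cldn11, Inmt, Cdo1 and Cldn2, and the largest rises included Slc44a5, Tchhl1 and Fndc1. These were picked among called genes whose groups did not overlap. The lack of overlap in the largest falls and rises therefore follows from the choice. The change was at least 2-fold for 475 genes, at least 4-fold for 152 and at least 8-fold for 43. All 979 changed in the same direction in both pairs, a property for which the paired test selects, and 73.2% of all genes did. The median change of all genes was 0.01. In limma 3558 of the 14000 genes had an unadjusted p under 0.05, the background for the unadjusted counts of the lists below. For 851 of the called genes the mock and treated arrays did not overlap, beside 42.4% of all genes tested. The other 128, of which 104 were lower, overlapped between groups while both pairs moved the same way. The number called rested on the pairing and on single arrays. Without the replicate block 91 genes were called, without mock replicate 2 only 3, without tamoxifen replicate 1 only 35, without tamoxifen replicate 2 only 8, and without mock replicate 1 the count was 413. Omission of 1 day 4 array, which lends to the estimate of the spread, gave 347 for either mock array and 489 for either treated array. Scaling to each array's median turned the split to 692 higher and 456 lower, 60.3% higher where the 75th percentile gave 44.5%. Across the 43 gene lists described below 151 entries were called, against 84 without mock replicate 1, 1 without mock replicate 2, 7 without tamoxifen replicate 1, 4 without tamoxifen replicate 2, 24 without the block and 13 after normexp background correction. Of the 131 called genes that the naming rule chose, all kept their sign in every one of these settings, and Sprr1a was the only one to pass the threshold with each of the 8 culture arrays left out in turn.

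**Figure D1:**
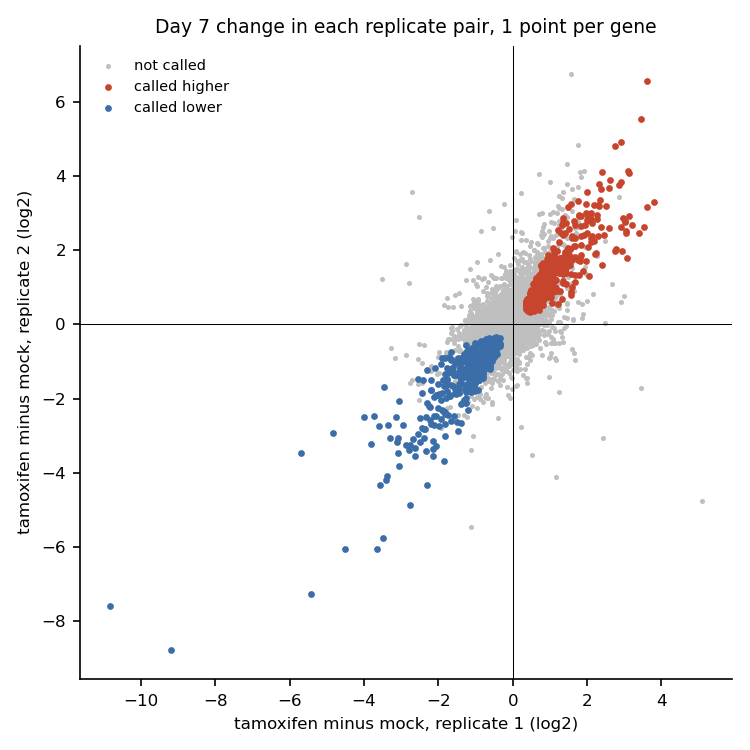
Change at day 7 in replicate 1 (x axis) and replicate 2 (y axis), tamoxifen minus mock on the log2 scale, 1 point per gene. Genes called higher (red) and lower (blue) lie in the 2 quadrants where both pairs have the same sign, and the correlation over 13997 genes was 0.723.

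The first principal component of the 4 arrays took 58.7% of the variance and placed the mock arrays at -6.92 and -50.6 and the treated arrays at 40.8 and 16.7. The second took 33.4% and placed replicate 1 (35.6 mock, 8.05 treated) above replicate 2 (-9.65 and -34.0). Arrays of a group correlated at 0.983 (mock) and 0.988 (treated) over genes. All 10 podocyte markers looked at, among them Nphs1, Wt1, Synpo, Podxl, Lmx1b, Tcf21, Ptpro and Cdkn1c, were well above background on all 4 arrays. Of markers of other cells, 6 of 8 endothelial, 7 of 7 mesangial or mural, 3 of 5 parietal, 4 of 6 tubule, 5 of 6 immune and 1 of 3 red cell genes were measured as well, and Tek, Tie1, Krt8, Krt18, Slc12a1, Umod, Cd68, Alas2 and Hbb-b2 were not.

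Cldn11, a tight junction claudin, stood at -0.24 and 1.63 in the mock cultures and at -5.66 and -5.65 in the treated ones, a fall of 6.35 (SE 0.49, adjusted p = 0.0105). Cldn2, the claudin that forms cation pores, stood at -2.15 and -1.63 in mock and at -7.85 and -5.09 with tamoxifen. The treated cultures were lower in both pairs for both claudins, without overlap, and for each of them 1 treated array was well above background. Atp1b1, the beta subunit of the sodium pump, went from 3.25 and 4.23 to -0.14 and 0.15, a fall of 3.74 (SE 0.22, adjusted p = 0.00759). Nkain4, a member of a membrane protein family that interacts with the pump, went from 2.01 and 2.86 to -1.80 and -0.36. For both genes all 4 arrays were well above background and the lower mock array lay above the higher treated one. In these whole-culture samples fewer cells of a type and less RNA per cell cannot be told apart.

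Inmt, an N-methyltransferase of indoleamines, stood at 0.35 and 2.21 in mock and at -4.17 and -3.84 in treated cultures. Cdo1, which oxidises cysteine on the way to taurine, stood at -1.16 and 1.86 in mock and at -4.80 and -4.19 in treated cultures. Falls were 5.29 for Inmt (SE 0.40, adjusted p = 0.0105) and 4.85 for Cdo1 (SE 0.57, adjusted p = 0.0197), and neither gene's groups overlapped. Itih2, a heavy chain that is carried by hyaluronan, fell by 3.95, and Gpc3, a cell-surface heparan sulfate proteoglycan, fell by 3.82. Tmeff2, a membrane protein with follistatin and EGF-like domains, fell by 3.32, and Lancl3 fell by 3.43. Sprr1a, a small proline-rich protein of the cornified envelope, stood at -2.10 and -1.50 in mock and at -5.18 and -4.96 in treated cultures (log2 change -3.27, SE 0.11, adjusted p = 0.00372). Tgm5, a transglutaminase, Myzap, a protein of adherens junctions, and Zfyve28, a FYVE-domain protein, were not well above background on either treated array and were at least 14.8-fold, 6.53-fold and 6.07-fold lower. Zfyve28 was measured in mock cultures at day 7 (-2.69 and -3.79) and was not well above background on any day 4 array.

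Slc44a5, a choline transporter-like protein, had the largest fitted rise and stood at -4.20 and -8.10 in the mock cultures and at -0.59 and -1.54 in the treated ones (log2 change 5.08, SE 0.97, adjusted p = 0.0486). Tchhl1, a trichohyalin-like gene, stood at -3.33 and -6.57 in mock and at 0.12 and -1.03 in treated cultures. In both genes mock replicate 2 was the lowest array and was not well above background, so replicate 2 carried the larger of the 2 pair differences. With that array set to its lowest signal well above background the change was 3.94 for Slc44a5 and 4.13 for Tchhl1, so their order turned. Slc44a5 gave 3.72 to 6.44 with single culture arrays left out and was called in 0 of those 8 fits, and Tchhl1 was called in 3. Fndc1, a protein with fibronectin type III domains, rose by 3.90, though its other probe gave 1.34. Clec18a, a C-type lectin, rose by 3.62, the nuclear receptor Rorb by 3.61 and the cadherin Cdh22 by 3.30. For Cdh22 mock replicate 2 lay below its lowest signal well above background. With that array set to that signal the change was 2.29. The call of Cdh22 was lost with normexp background correction, and that of Fndc1 with the mean of its probes. Neither was called with no filter on dim probes or with no replicate block. Galr2, a galanin receptor, stood at -5.05 and -5.90 in mock and at -2.15 and -2.05 in treated cultures, with an adjusted p of 0.0102. Crabp2, which carries retinoic acid to the nucleus, stood at 1.04 and -0.60 in mock and at 4.25 and 2.09 in treated cultures. Rgcc, a regulator of the cell cycle, stood at 2.43 and 1.09 in mock and at 4.76 and 4.86 in treated cultures. These 3 genes did not overlap between groups, and the keratin Krt23 (3.13), Capn6 (3.26) and the cytidine deaminase Cda (3.01) rose by similar amounts.

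**Figure D2:**
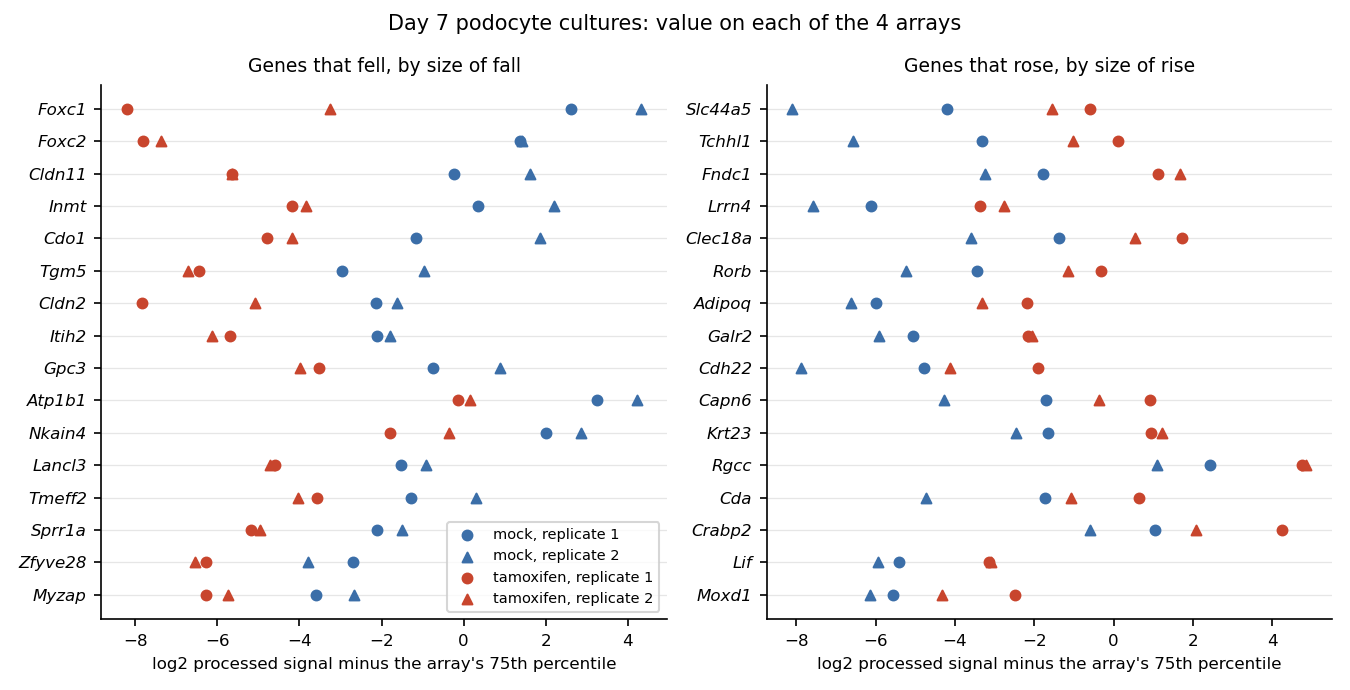
Log2 processed signal minus the array's 75th percentile (x axis) on each of the 4 day 7 arrays for the genes with the largest falls (left) and rises (right). Blue points are mock, red points tamoxifen, circles replicate 1 and triangles replicate 2. In every gene shown both treated arrays lie on one side of both mock arrays, which the choice of genes required.

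Some genes were measured only in the treated cultures. Adiponectin (Adipoq), the adipocyte hormone, was not well above background in mock and stood at -2.18 and -3.33 with tamoxifen, at least 7.93-fold higher. Lif, a cytokine of the interleukin 6 family, stood at -3.13 and -3.09 with tamoxifen and was at least 5.67-fold higher (adjusted p = 0.00759). Lrrn4, a leucine-rich repeat membrane protein, was at least 6.42-fold higher and the monooxygenase-like Moxd1 at least 4.88-fold. In all, 36 called genes were not well above background on either mock array and 26 on neither treated array, so the sizes of those are bounds.

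Genes of the slit diaphragm and foot process changed in part. Of 24 tested, 3 fell and 1 rose, with a median change of -0.10, where 3.88% and 3.11% of all genes fell and rose with a median of 0.01. The actin regulator Inf2 stood at 5.16 and 5.01 in mock and at 4.08 and 4.20 with tamoxifen, a fall of 0.94 (SE 0.10, adjusted p = 0.0151). The junction scaffold Tjp1 fell by 0.75, while Magi1, another junction scaffold, rose by 1.03. The groups did not overlap for any of these 3. Nephrin (Nphs1), the main protein of the slit itself, gave a change of 0.69 (0.79 and 0.06 against 0.72 and 1.51, adjusted p = 0.333), and its groups overlapped. Synaptopodin (Synpo), which bundles actin in foot processes, gave -0.55 (adjusted p = 0.0961) and podocalyxin (Podxl), the main sialoprotein of the podocyte surface, 0.04.

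Among 17 podocyte transcription factors 3 fell and 1 rose (23.5% called, beside 6.99% of all genes), with a median of -0.41. Foxd1, a forkhead factor of the kidney stroma and podocytes, stood at 2.86 and 3.48 in mock and at 0.61 and 1.28 with tamoxifen, a fall of 2.23 (SE 0.11, adjusted p = 0.0058). Tcf21, a helix-loop-helix factor of podocyte development, fell by 0.90 and the glucocorticoid receptor Nr3c1 by 0.52. Zhx2, a zinc finger and homeobox repressor, rose by 0.63. Wt1, the factor most used to mark podocytes, did not pass the test and stood at 5.17 and 4.93 in mock and at 5.44 and 5.49 with tamoxifen (adjusted p = 0.0784). Lmx1b (-0.42) did not pass it either. Of 20 other forkhead genes measured, 1 was called (5%, beside 6.99% of all genes): Foxl1 rose by 1.69, from -0.91 and -1.37 to 0.51 and 0.60.

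Podocyte surface and secreted proteins were the list with the highest share called, 12 of 26 (46.2%, beside 6.99% of all genes). Of these, 9 were lower and 3 higher, and the median of the list was -0.04 (0.02 under median scaling). Clic5, a chloride intracellular channel protein of foot processes, stood at 4.33 and 4.41 in mock and at 2.50 and 3.08 with tamoxifen, a fall of 1.57. The receptor phosphatase Ptpro fell by 1.40, the matrix protein nephronectin (Npnt) by 1.21, Dpp4 by 1.13 and the guidance receptor Robo2 by 1.04. Pard3b, a polarity protein, Rasl11a, the complement regulator Cd55 and Thsd7a, a podocyte membrane antigen, fell by 0.56 to 0.84. In the other direction Enpep, the aminopeptidase that cleaves angiotensin II, rose by 1.89 and Angptl2 by 1.66, and the tetraspanin Tspan2 rose by 0.51. No called member of this list overlapped between groups. With normexp background correction 1 member was called, higher, and without mock replicate 2 none was, nor without either treated array, while without mock replicate 1 there were 4 higher and 1 lower.

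Of the basement membrane genes 2 of 21 were called (9.52%, beside 6.99% of all genes). Col4a3, a chain of the mature glomerular collagen network, fell by 0.98 (limma adjusted p = 0.0499) and Col4a6 rose by 0.65 (0.0444). Both calls lay near the threshold. Col4a3 was not called under median scaling, Col4a6 not with the mean of its probes, and neither with all 12 arrays fitted. None of 27 interstitial matrix genes was called by limma (8 at an unadjusted p under 0.05; under median scaling 1 rose and 1 fell), and Col1a1, a fibrillar collagen chain, differed by 1.02 (SE 0.47, adjusted p = 0.258). Col1a1 gave 1.83 without mock replicate 1, where it was called, and 0.21 without mock replicate 2. Among 28 matrix proteases and inhibitors 4 fell and 1 rose. Mmp13, a collagenase, stood at -3.44 and -3.05 in mock, was not well above background with tamoxifen, and was at least 6.07-fold lower. Adamts18, a secreted metalloproteinase, stood at -3.21 and -3.03 in mock and at -5.72 and -5.56 with tamoxifen (log2 change -2.52, SE 0.08, adjusted p = 0.0037). The inhibitor Timp2 fell by 0.80. Mmp9, a gelatinase, fell by 1.47 with overlapping groups, since mock replicate 2 (-6.35) lay below tamoxifen replicate 1 (-5.23). For Mmp9 both replicate 2 arrays lay below their lowest signal well above background. With those arrays set to that signal its change was -0.85. Of 15 hyaluronan genes Itih2 fell and the proteoglycan Vcan rose by 1.96. Calls made up 17.9% of the proteases and inhibitors and 13.3% of the hyaluronan genes, beside 6.99% of all genes.

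Of 21 cadherin, claudin and junction genes 4 fell and 2 rose: Cldn1 fell by 1.95 and Cdh11 by 0.48, while N-cadherin (Cdh2) rose by 0.94 and P-cadherin (Cdh3) by 0.77. Of 30 actin and focal adhesion genes the integrin Itgb5 fell by 0.96 and the integrin Itga6 rose by 1.50 (6.67% called, beside 6.99% of all genes). Of 18 smooth muscle contractile genes 2 rose, Actg2, a smooth muscle actin, by 1.63 and the Z-disc protein Ldb3 by 0.75, and the median was 0.46. In 12 of those 18 genes both treated arrays lay above both mock arrays, where 23.1% of all genes did. The same held for 15 of 26 genes of oxidative phosphorylation, none of which was called. Twist2, a mesenchymal factor, fell by 1.48 in a list of 13 in which Cdh2 was the other call. Calls made up 28.6% of the junction genes, 11.1% of the smooth muscle genes and 15.4% of that list of 13.

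Genes of glycolysis and of the response to low oxygen formed the largest group of rises. Of 32 tested, 13 rose and 1 fell (43.8% called, beside 6.99% of all genes), and the median change was 0.54. The rises were of 1.09 or less. Pgk1, phosphoglycerate kinase, stood at 5.81 and 5.05 in mock and at 6.72 and 6.16 with tamoxifen, a rise of 1.01 (SE 0.09, adjusted p = 0.0127). Slc2a1, the glucose transporter of most cells, went from 3.09 and 2.56 to 3.74 and 3.44, a rise of 0.76. Slc16a3, which exports lactate, went from 3.66 and 2.52 to 4.44 and 3.68, a rise of 0.97. For these 3 genes the lower treated array lay above the higher mock array. Pdk1, which restrains entry of pyruvate into the mitochondrion, rose by 1.09, and Pfkl, a phosphofructokinase, by 0.86, and Hk2, a hexokinase, by 0.74. Pgam1, Eno1 and Tpi1, enzymes of the lower pathway, rose by 0.54 to 0.69, as did the collagen hydroxylase P4ha1, the mitochondrial protein Bnip3 and the oxygen-regulated factor Hif1a. Ddit4, an inhibitor of mTOR signalling, rose by 0.75. Pdk4, induced by fasting and glucocorticoids, stood at 2.14 and 2.39 in mock and at 0.79 and 0.26 with tamoxifen, a fall of 1.74. The members not called ranged from -0.37 for Epas1 to 2.33 for Car12, a carbonic anhydrase whose change was the highest of the list (adjusted p = 0.0618, groups overlapping). Aldoc, an aldolase, gave 1.29, Ldha 0.10, Gapdh -0.01 and Car9, a common hypoxia marker, 0.10. Tpi1 and Pdk1 overlapped between groups, mock replicate 1 standing above tamoxifen replicate 2, and in every one of the 13 both replicate 1 arrays were above the replicate 2 array of their group. The median was 0.48 to 0.60 with any day 7 array left out, but no member was called without mock replicate 2, tamoxifen replicate 1 or tamoxifen replicate 2, 2 rose without mock replicate 1, none rose without the replicate block, and none was called after normexp.

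The promoters of 4 of the genes that rose are shown because the hypoxia-inducible factors bind a short core, ACGTG, which can be looked for in the window from 250 bases before to 50 after the gene's start (RefSeq, GRCm38.p6). Both strands were searched, CACGT being the reverse, and the 2 overlap in CACGTG. Matches are in capitals. The 4 were chosen among genes whose window held a match, and the windows of Pdk1, Pfkl, Eno1 and Tpi1 held none.
Pgk1, chrX:106186850-106187149 (plus strand): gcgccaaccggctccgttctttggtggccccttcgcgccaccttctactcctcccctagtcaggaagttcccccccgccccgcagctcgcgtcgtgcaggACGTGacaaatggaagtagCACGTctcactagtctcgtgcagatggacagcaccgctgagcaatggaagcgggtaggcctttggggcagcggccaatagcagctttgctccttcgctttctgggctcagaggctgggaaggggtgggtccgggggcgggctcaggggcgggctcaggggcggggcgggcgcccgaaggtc
Slc2a1, chr4:119108495-119108794 (plus strand): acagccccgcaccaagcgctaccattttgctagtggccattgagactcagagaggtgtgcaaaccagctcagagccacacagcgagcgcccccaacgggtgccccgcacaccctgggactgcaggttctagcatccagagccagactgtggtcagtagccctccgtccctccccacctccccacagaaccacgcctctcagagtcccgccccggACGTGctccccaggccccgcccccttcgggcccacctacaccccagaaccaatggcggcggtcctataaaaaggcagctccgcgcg
Slc16a3, chr11:120948817-120949116 (plus strand): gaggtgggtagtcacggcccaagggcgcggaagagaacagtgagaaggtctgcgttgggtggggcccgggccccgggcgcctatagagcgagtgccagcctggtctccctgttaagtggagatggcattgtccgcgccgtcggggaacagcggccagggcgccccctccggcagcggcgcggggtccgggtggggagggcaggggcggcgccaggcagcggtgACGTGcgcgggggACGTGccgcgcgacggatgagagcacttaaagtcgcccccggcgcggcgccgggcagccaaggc
Hk2, chr6:82774405-82774704 (minus strand): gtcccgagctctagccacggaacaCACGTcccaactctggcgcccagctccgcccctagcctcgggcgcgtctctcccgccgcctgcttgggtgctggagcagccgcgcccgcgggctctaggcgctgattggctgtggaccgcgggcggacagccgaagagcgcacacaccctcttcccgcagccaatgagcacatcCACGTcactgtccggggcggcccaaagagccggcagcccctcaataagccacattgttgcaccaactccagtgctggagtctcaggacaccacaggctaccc
The core was present in 9 of the 16 windows (56.2%) of the 13 genes that rose and in 55.3% of the windows of all members of the list with an entry. It was in 24.1% of 14141 windows of genes tested and in 19.6% of all 32851 windows of that length. Among genes called higher the share was 23.3% and among genes called lower 20.0%. The forkhead core GTAAACA (reverse TGTTTAC, no overlap) was in 0 of 13 windows of the named largest falls, in 2.86% of windows of genes called lower, 1.78% of those called higher and 2.62% of those tested. A match is a run of letters and not a site known to be bound.

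Of 19 immune cell markers tested, 8 fell and none rose (42.1% called, beside 6.99% of all genes), with a median of -0.64. In both pairs 16 of 19 were lower with tamoxifen, where 73.2% of all genes kept 1 direction, higher or lower. The share of all genes lower in both pairs was not counted. In 2 of 19 both treated arrays lay below both mock arrays, where 19.3% of all genes did. Markers of the same cells can vary together, so the 16 are not separate pieces of evidence. Adgre1, a surface receptor used to mark macrophages, stood at -0.89 and -2.97 in mock and at -2.30 and -4.14 with tamoxifen, a fall of 1.29 (SE 0.13, adjusted p = 0.0135). Ly86, a lymphocyte and macrophage antigen, stood at -0.81 and -2.90 in mock and at -2.39 and -4.26 with tamoxifen. The complement chains C1qa, C1qb and C1qc, made mainly by macrophages, fell by 1.23, 1.15 and 1.13, the signalling adaptors Tyrobp and Fcer1g by 1.31 and 0.97, and the mannose receptor Mrc1 by 1.36. All 8 overlapped between groups, and both replicate 1 cultures were higher than their replicate 2 counterparts. The summed linear signal of the 19 genes, in multiples of the 75th percentile, was 32.4 and 16.7 in mock and 19.6 and 11.6 with tamoxifen. No member was called without the replicate block, without mock replicate 2, or without either treated array, and 6 fell without mock replicate 1. None was called after normexp, and Cd68 was not measured. How far the share of such cells contributed to falls in other lists was not tested.

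**Figure D3:**
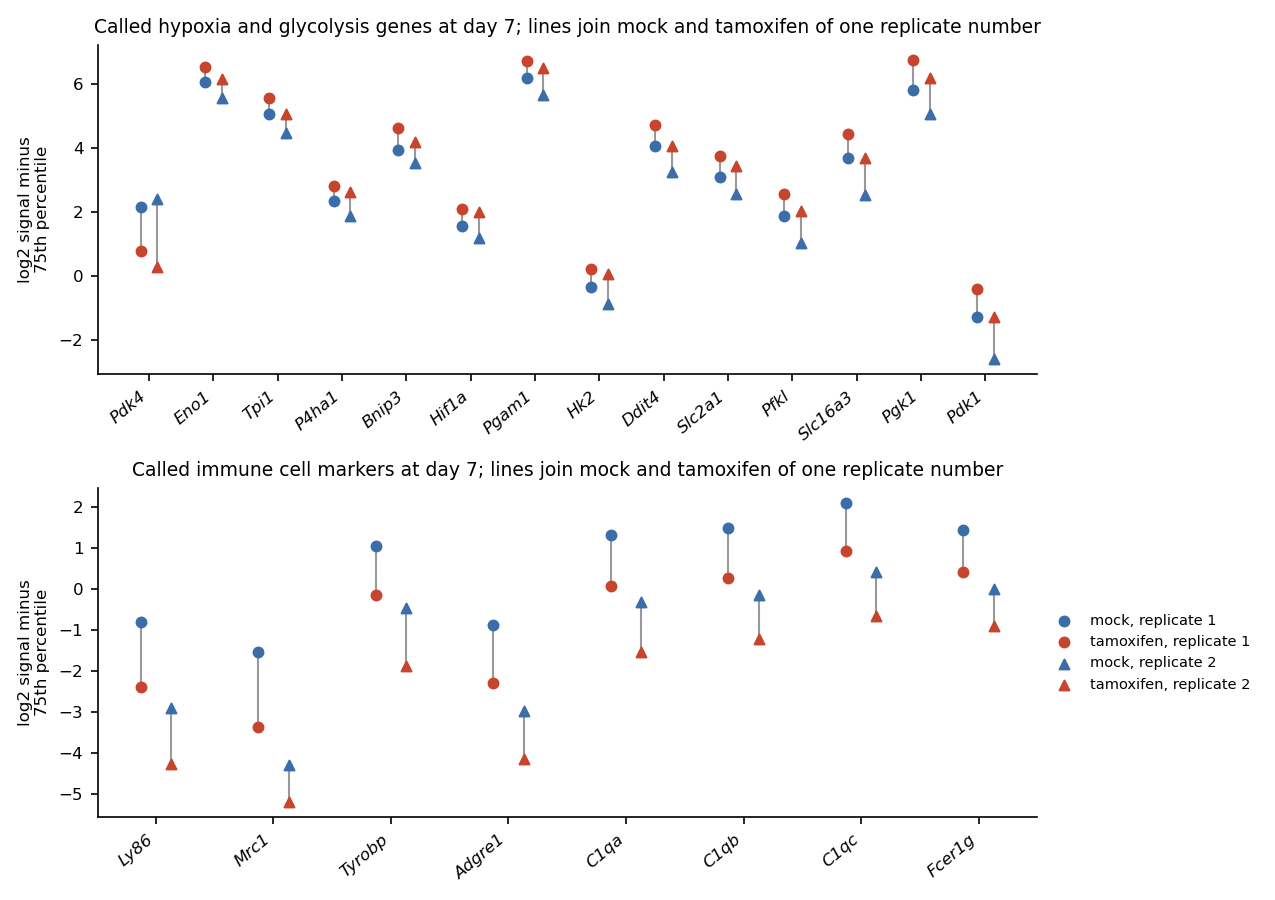
Log2 signal minus the 75th percentile (y axis) on the 4 day 7 arrays for the called hypoxia and glycolysis genes (top) and immune cell markers (bottom). Grey lines join the mock (blue) and tamoxifen (red) array of a replicate number, circles for 1 and triangles for 2. All lines of the immune markers run downward with tamoxifen, and the treated point of replicate 1 lies above the mock point of replicate 2 in each of the 8.

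Markers of mesangial and mural cells also fell in part, 4 of 19, with none higher (2 higher under median scaling, 1 under quantile normalization) and a median of -0.26. Rgs5, a pericyte regulator of G protein signalling, stood at -0.66 and -1.49 in mock and at -3.79 and -4.00 with tamoxifen, a fall of 2.82 (SE 0.20, adjusted p = 0.0089). The heparin-binding growth factor Ptn fell by 1.93, the LIM protein Fhl2 by 1.59 and angiopoietin 1 (Angpt1) by 1.17. The summed signal of the 19 was 354 and 297 in mock and 414 and 387 with tamoxifen, so the sum did not fall with these 4. None of 20 endothelial markers was called (4 with an unadjusted p under 0.05; 1 lower under quantile normalization), and the largest difference was -0.91 for Plat. Of 9 parietal epithelial markers Cldn1 fell and Pax8 rose by 0.49. Of 14 tubule markers Lrp2, the receptor megalin, fell by 0.82 and Ass1, the urea cycle enzyme, rose by 2.71, from 3.59 and 1.97 to 5.78 and 5.20. Aqp1 was not well above background in mock and was at least 1.50-fold higher. Of 2 red cell genes measured neither was called (0 with an unadjusted p under 0.05), and Hba-a2 gave -0.10. The part of other cell types in the results above was not tested.

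Among complement genes 5 of 15 fell and 1 rose (median -0.53). Complement component C2, a convertase subunit, rose by 2.76, from 1.12 and -0.89 to 3.40 and 2.34. This change was without overlap, whereas those of Cfp (-0.97) and C3ar1 (-0.78), expressed by myeloid cells, were overlapping. Of 22 chemokines and cytokines 5 fell and 2 rose. Cxcl12, a chemokine that podocytes secrete, stood at 0.46 and 2.25 in mock and at -1.61 and -1.04 with tamoxifen, a fall of 2.68. Il34, a ligand of the macrophage growth factor receptor, fell by 1.99, while Csf1, the other ligand of that receptor, rose by 0.69 and the monocyte chemokine Ccl7 by 1.26. Cxcl1, Cxcl14 and Ccl3 fell by 1.31, 0.88 and 0.77 with overlapping groups. In the interleukin 6 family the ligand Lif rose as given above, the receptor Il6ra fell by 1.55 and the shared receptor chain Il6st by 0.54, and 14 of 17 were not called. Beside 6.99% of all genes, 40% of complement genes, 31.8% of chemokines and cytokines and 17.6% of the interleukin 6 family were called. Of 25 interferon response genes Ifit2 fell by 1.04 and Xaf1 by 0.47 (8% called, beside 6.99% of all genes).

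Prostanoid genes were called in 5 of 16 cases (31.2%, beside 6.99% of all genes). Ptgis, which makes prostacyclin, stood at -0.17 and 0.31 in mock and at -2.28 and -2.15 with tamoxifen, a fall of 2.29 (SE 0.15, adjusted p = 0.0076). The inducible cyclooxygenase Ptgs2 rose by 1.43 and the constitutive Ptgs1 fell by 0.64. The prostaglandin E receptor Ptger3 rose by 2.54, and the thromboxane synthase Tbxas1 fell by 1.11 with overlapping groups. Of 18 vasoactive receptors 1 was called, lower (5.56%, beside 6.99% of all genes), and under median scaling 2 were lower and 1 higher. Npr1, the receptor of atrial natriuretic peptide, stood at -1.09 and -0.63 in mock and at -4.04 and -3.33 with tamoxifen, a fall of 2.83 (SE 0.10, adjusted p = 0.0037).

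In the TGF-beta and BMP list 5 of 38 rose and 1 fell, with a median of 0.29. Among ligands Gdf6 rose by 2.32, Tgfb3 by 1.33 and Gdf5 by 0.68, and Bmp6 fell by 1.77. The activin antagonist Fst, follistatin, went from 1.12 and 0.62 to 2.93 and 2.33, and the receptor Acvr1 rose by 0.72. Of 14 Notch genes 3 rose and none fell: the ligand Jag1 by 0.84, the target Hey1 by 1.26, and the target Hey2, not well above background in mock, was at least 1.88-fold higher. Of 34 Wnt genes the ligands Wnt9a and Wnt5a rose by 1.26 and 0.80 and the receptor Fzd5 fell by 1.07, a call lost under median and quantile scaling. The share of Wnt genes called was 8.82%, beside 6.99% of all genes. Among 25 growth factors and receptors the receptor Kit fell by 2.44, the ligand Fgf7 by 1.21 and Erbb2 by 0.42. The ligands Gdnf, Fgf2 and Pdgfb rose by 1.35, 1.09 and 0.97. Of 17 VEGF and angiopoietin genes Angptl2 and Angpt4 rose by 1.66 and 1.75 and Angpt1 and Angptl7 fell by 1.17 and 1.30. Of 14 insulin-like growth factor genes the binding protein protease Pappa rose by 1.00 and the RNA-binding Igf2bp1 fell by 0.93. Calls made up 15.8% of the TGF-beta and BMP list, 21.4% of Notch genes and 24% of growth factors and receptors. They were 23.5% of VEGF and angiopoietin genes and 14.3% of insulin-like growth factor genes, beside 6.99% of all genes.

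Guidance molecules changed in both directions, 7 of 43 rising and 5 falling (median 0.11). Among secreted ligands Slit3 went from -3.26 and -4.87 to -1.21 and -2.05, a rise of 2.44 (SE 0.20, adjusted p = 0.0116), and Sema3e went from -0.80 and 0.43 to -2.62 and -2.26, a fall of 2.26. Neither overlapped between groups. Netrin 1 (Ntn1) rose by 1.38 and its receptor Unc5b by 0.88. Sema3a, which acts on podocyte shape, rose by 1.17, Sema5a by 2.09 and Sema6a by 0.87, while Sema4b fell by 0.68. Of the ephrin system Epha2, Efnb2 and Epha7 fell by 0.47 to 0.83, and Epha1, not well above background in mock, was at least 2.13-fold higher. Of 16 neuronal genes the adhesion molecule Nrcam rose by 1.73 and Dpysl3, a cytosolic mediator of semaphorin signals, fell by 1.02.

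Of 25 kidney development factors 3 rose and none fell. Sox9, a factor of ureteric and regenerating tubule epithelium, stood at -3.28 and -4.53 in mock and at -0.95 and -1.34 with tamoxifen, a rise of 2.76 (SE 0.26, adjusted p = 0.0131). Emx2, a homeobox factor of the ureteric bud, rose by 1.17, and Pax8 was the third. Adipocyte and lipid genes gave 4 falls and 1 rise of 21. Adipoq was the rise, the fatty acid receptor Cd36 fell by 1.31, the nuclear receptor Pparg by 0.92, Apoe by 0.84 and the lipase Lipe by 0.56, with Cd36 and Apoe, also macrophage genes, overlapping between groups. Of 8 keratin and cornification genes Sprr1a and Krt23 were the calls, in opposite directions.

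Several cellular programmes had no called member, which does not show that they were unchanged. In simulated data 2 of 50 changes of 0.5 on the log2 scale were called, so small changes can be missed here. With single day 7 arrays left out the cell cycle median ranged from -0.43 to 0.40. The cholesterol synthesis median ranged from -0.35 to 0.46. Unadjusted counts below stand beside 3558 of all 14000 genes with an unadjusted p under 0.05 in limma. In limma none of 37 cell cycle genes was called (1 with an unadjusted p under 0.05), with Ccne1, a G1 cyclin, at 0.65 (SE 0.32). None was called of 29 p53 response genes (4 unadjusted), 26 genes of oxidative phosphorylation (5), 25 of cholesterol synthesis (0) or 14 of the estrogen and tamoxifen response (7, with 2 higher under median scaling). In that last list Car12, a carbonic anhydrase regulated by estrogen receptor, stood at -1.19 and -4.80 in mock and at 0.41 and -1.74 with tamoxifen (log2 change 2.33, SE 0.51, adjusted p = 0.0618). Its groups overlapped. Of 31 unfolded protein and stress genes the chaperone Canx rose by 0.62 (not called under median or quantile scaling) and Hspa12a, an atypical heat shock protein, fell by 2.42. The share called in that list was 6.45%, beside 6.99% of all genes. Of 23 immediate early genes the phosphatase Dusp2 and Ier3 rose by 1.09 and 0.87, and Dusp6 and the orphan receptor Nr4a2 fell by 0.88 and 0.55. Those calls made up 17.4% of the immediate early genes, beside 6.99% of all genes.

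**Figure D4:**
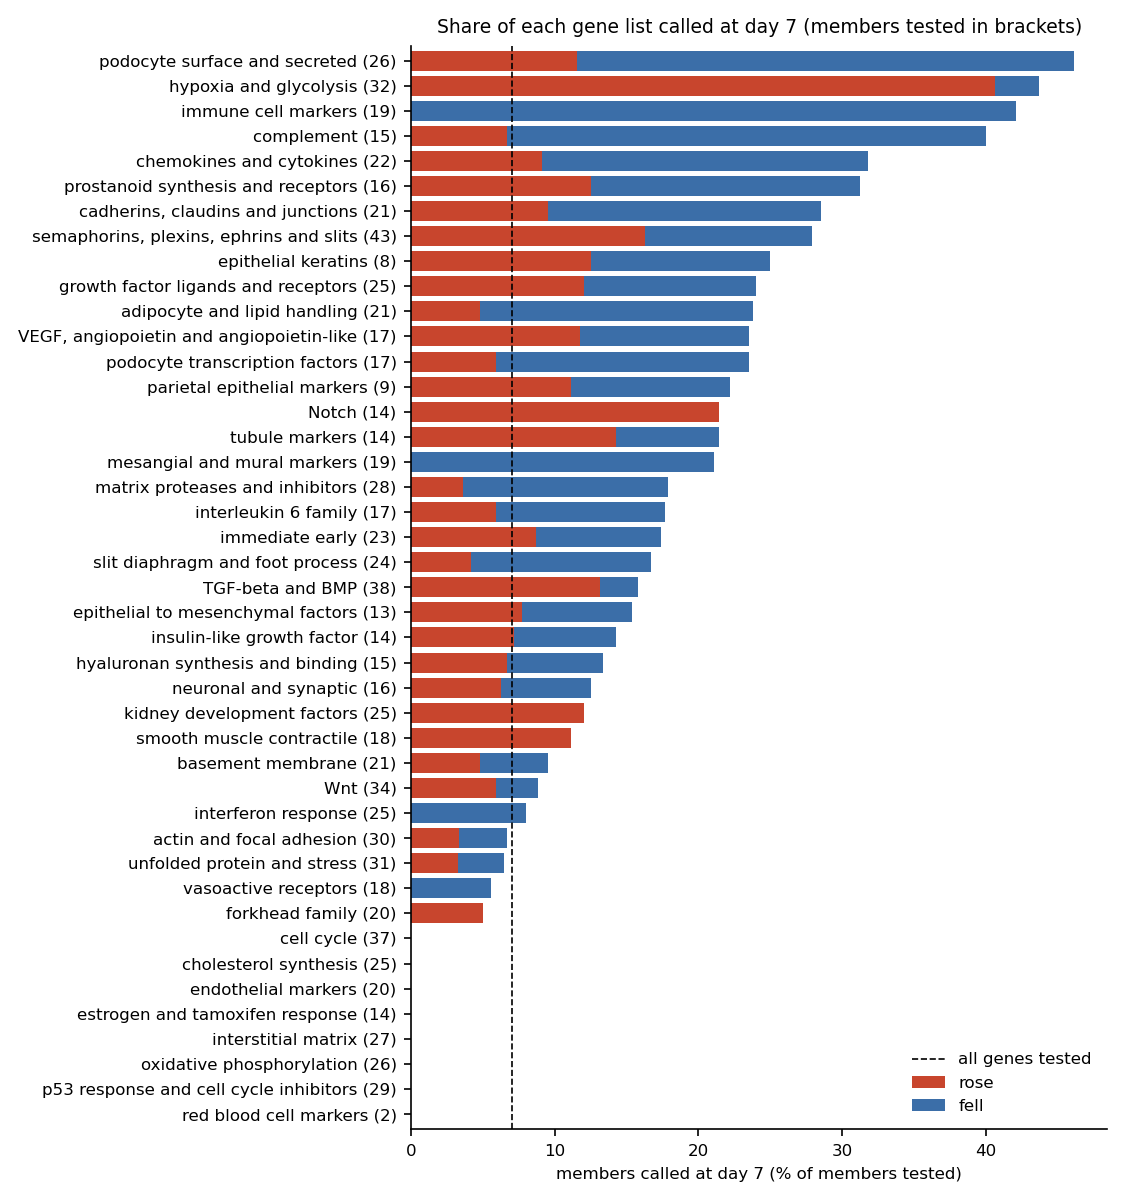
Share of the tested members of each gene list that rose (red) or fell (blue) at day 7, in percent, with the number of members tested in brackets. The dashed line is the 6.99% called among all genes, and lists range from 46.2% for podocyte surface and secreted proteins to 0.

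The day 4 cultures, which had the same treatment for a shorter time, shared much of this pattern. At day 4, 436 genes (3.11%) were called, and 397 genes were called on both days, which is 40.6% of the day 7 calls and 91.1% of the day 4 calls. Of these, 396 had the same direction. Among the 979 genes called at day 7 the sizes were a median of 0.97 at day 7 and 0.72 at day 4, and 84.0% were larger at day 7, but these genes were chosen by their day 7 values and both days share 1 estimate of the spread and of the replicate difference. The test of the difference itself called none of 14000 genes (0%) in limma, with 306 at an unadjusted p under 0.05. Foxc2 changed by -7.87 at day 4, Cldn11 by -5.93, Inmt by -5.19 and Slc44a5 by 4.88, the last not called there (adjusted p = 0.0691). Cldn2 gave -3.09 at day 4 (adjusted p = 0.071).

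Glomeruli of injected mice shared a smaller part of the pattern. In a fit with the 4 glomerular arrays added, 455 of 14000 genes were called in glomeruli. Of these, 92 were called at day 7 too, 75 in the same direction. The 92 were 9.40% of the day 7 calls. They were 20.2% of the glomerular calls, where 6.99% of all genes were called at day 7. The shared ones included Foxc2 (-2.82 in glomeruli), Foxl1 (2.70), Nrcam (3.01), Ptgs2 (1.26), Myzap (-0.87) and Ldb3 (1.35). The day 7 and glomerular changes themselves differed for 179 genes (1.28%). Atp1b1 was lower in treated cultures and higher by 1.17 in treated glomeruli (adjusted p = 0.0386 there and 0.00303 for the difference). Foxc1 fell in culture and gave -1.86 in glomeruli (adjusted p = 0.256), and the difference of -7.35 had an adjusted p of 0.0428. That size includes the treated culture array below background, and was -6.21 with that array set to its lowest signal well above background. The number called rested on single arrays, being 9 without tamoxifen replicate 2 of day 7, 14 without mock replicate 2, 46 without tamoxifen replicate 1 and 58 without mock replicate 1. Leaving out a mock array of day 4 gave 24, and a treated one 54. The count was 93 and 290 without control glomeruli 1 and 2, and 46 and 294 without treated glomeruli 1 and 2.

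**Figure D5:**
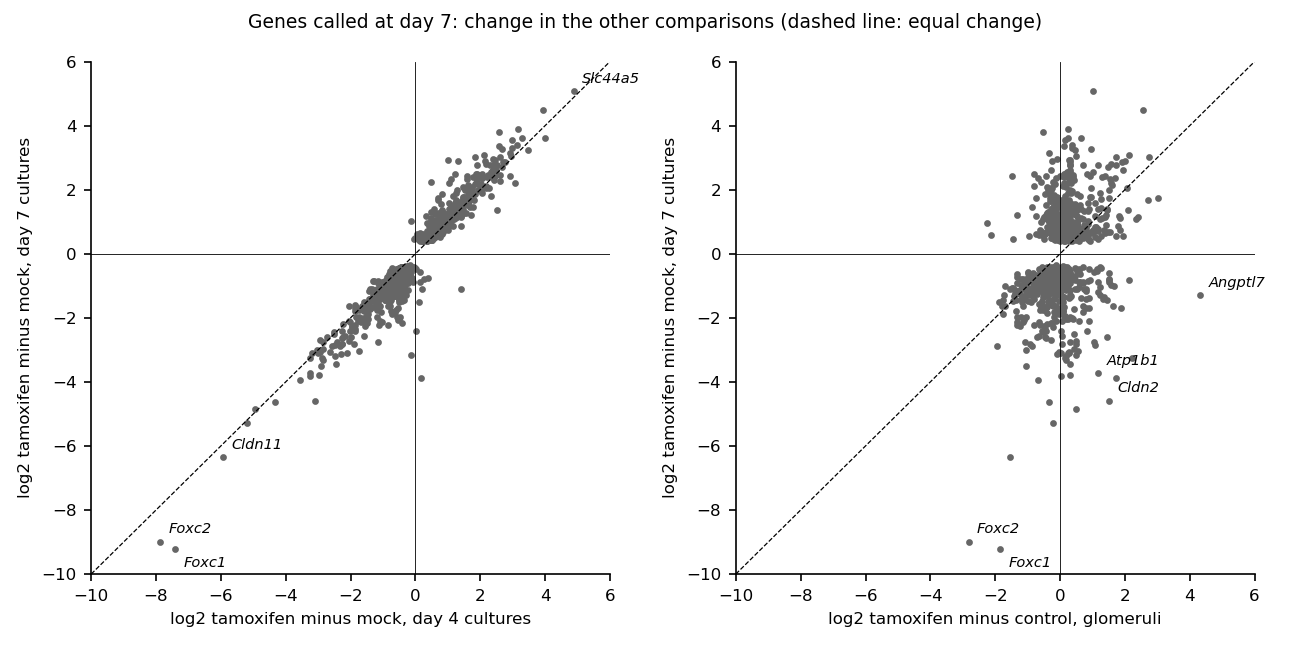
Log2 change at day 7 (y axis) of the 979 genes called there against their change in the day 4 cultures (left x axis) and in glomeruli (right x axis). Points on the dashed line changed equally; at day 4 98.7% had the day 7 sign and in glomeruli 67.2%, where 82.8% and 58.0% of all genes did.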

How the data were processed

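Each RNA sample was labelled with the dye Cy3 and put on its own Agilent array, per the labels' protocols. Per the file headers, Agilent Feature Extraction 11.5.1.1 made the deposited scanner files, whose spot intensity is linear. The authors also deposited a table of log2 values for these arrays (r = 1.00 per column, column medians -4.14 to -3.82), and its columns matched the log2 processed signal minus the 75th percentile up to a shift of 0.0940 to 0.120; scale, centring and direction are thereby known, and the number of array columns outside the samples was 0.

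Log2 processed signal minus each array's 75th percentile (558.8 to 656.2 units on the 4 day 7 arrays) was used. Control spots and outlier spots (111 to 134) were left out, 0 spots were saturated, and 59.9% to 62.0% were well above background. Of 39429 probes 26581 had 1 symbol, 0 several and 12848 none, through RefSeq accessions of GRCm38.p6 (28115 probes had one). The array's design build differs, so array coordinates are not given. Of 18341 named probes kept, the brightest over the 4 arrays stood for each of 14000 genes, of which 3637 had several probes. Among 224 called genes with several, 7 had a probe pointing the other way. For 3 genes a day 7 value was missing.

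The tests ran in limma 3.58.1 (lmFit, eBayes; R 4.3.3) on the 8 culture arrays with 4 group means and 1 block on replicate number (3 residual and 2.01 prior degrees of freedom), or on all 12 arrays for the glomerular contrast (5 and 2.14), and p-values were adjusted over all genes by Benjamini-Hochberg. SE is limma's. Deviations of same-numbered cultures from their group means correlated at 0.475 to 0.641 in all 6 pairs of groups, over 13992 genes, and the pairing comes from the title numbers. With 2 arrays against 2, an exact two-sided permutation test of a single gene cannot go below 0.333. The number of arrays limits the precision. "At least N-fold" compares the bright group's mean with the mean over the dim group's arrays of the higher of the probe's own signal and the lowest signal well above background. The script was tested on simulated data.

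Named genes were the targets, the 12 largest non-overlapping rises and falls, up to 4 each way measured in only 1 group, up to 4 called members per list (or 1 value where none was called), and up to 6 each way that differed from day 4 or from glomeruli; clone-numbered symbols were left out, and other list members are given as further members, chosen after their values were seen. The members and lists were chosen with earlier results of these data known. Alternatives covered background correction (normexp used the median signal, as the mean was not used here), scaling, filter, probe rule, block, arrays fitted, eBayes options and leaving out each array. Some genes that entered the counts are not reported here by name.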

Additional observations from a re-analysis of the deposited data

Results flagged for a closer look

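For 11 genes given here the response of the day 7 cultures differed from that of glomeruli by a test of the difference itself (limma over 12 arrays, Benjamini-Hochberg adjusted p 0.00303 to 0.0471). They were chosen by size of the difference, up to 6 each way. The difference, day 7 minus glomeruli on the log2 scale, was -7.35 for Foxc1, -6.08 for Cldn2, -5.62 for Angptl7, -5.33 for Cdo1, -5.08 for Inmt and -4.91 for Atp1b1. The sizes for Foxc1, Cldn2 and Angptl7 include a treated culture array below its lowest signal well above background. With that array set to that signal they were -6.21, -5.12 and -5.45. The difference was 3.90 for Fam181b, 3.05 for Crabp2, 3.03 for Pde2a, 2.55 for Pitpnm3 and 2.48 for Sema5a. For Pitpnm3 mock replicate 2 of day 7 lay below its lowest signal well above background. With that array set to that signal the difference was 2.43. Angptl7, an angiopoietin-like secreted protein, and Atp1b1 were called in both settings in opposite directions. Angptl7 changed by -1.30 in culture and by 4.32 in glomeruli, and Atp1b1 by -3.74 and 1.17. The culture call of Angptl7 was lost with normexp, with no filter on dim probes and with all 12 arrays fitted, where that of Atp1b1 held. With no replicate block neither was called at day 7. With single culture arrays left out Angptl7 gave -1.58 to -1.01 and Atp1b1 -4.11 to -3.37. The genes Cdo1, Inmt, Cldn2, Crabp2, Pitpnm3, Sema5a, Pde2a and Fam181b were called in culture and not in glomeruli, where their changes ranged from -1.47 to 1.50.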

How the results depend on the processing

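All 131 named calls kept their sign in all 22 settings that could be fitted for them (106 genes remained under the filter on all 4 arrays). The split of day 7 calls turned, from 436 higher and 543 lower, to 692 and 456 under median scaling and 252 and 161 without mock replicate 1. With no replicate block 91 genes were called at day 7 in place of 979, and the difference from glomeruli was called for 37 in place of 179. With the block set within each day the latter was 99. With normexp background correction 67 genes were called at day 7 and 5 in the difference from glomeruli, and without a filter on dim probes 252 and 75. Fitting all 12 arrays gave 569 with the block and 182 without it, the 4 day 7 arrays alone gave 0 with the block (3283 at an unadjusted p under 0.05) and 1 without it (1485 unadjusted), and eBayes with trend and robust gave 1472. Leaving out single arrays gave 3 to 489 genes at day 7, 0 to 1 in the difference from day 4 and 9 to 294 in the difference from glomeruli. The array left out leaves its group with 1 sample, assumed to vary like the other groups. Median scaling (1148), quantile normalization (1068), the authors' deposited table (1021), the filter on all 4 arrays (1045), the mean of probes (955) and a block within each day (925) stayed within 1.5 times the day 7 count. Of the named calls, 24 passed with normexp, 50 with no filter and 26 with no block. Scaling moved the median of all genes to 0.06 at most. A slide block could not be fitted apart from the groups: each of 3 slides held 1 whole comparison, which the group means absorb. Signal near background limits the sizes of the lowest genes: setting arrays below their lowest signal well above background to that signal, chosen after seeing the data, reversed none of the named genes it touched.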

Other observations

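Retinoid handling, glucocorticoid-inducible and sodium pump genes were looked at after values had been seen. Their counts therefore describe the choice as well as the data. Among all genes tested 3.88% fell and 3.11% rose. Of 17 retinoid handling genes tested, 4 fell and 2 rose. Aldh1a1, which makes retinoic acid, stood at 4.05 and 4.37 in mock and at 2.17 and 2.04 with tamoxifen. Aldh1a7, its close relative, stood at 0.10 and 0.45 in mock and at -2.29 and -2.61 with tamoxifen, and which of these near-identical paralogs a probe measures is uncertain. Cyp26b1, which degrades retinoic acid, fell by 2.12, and the transglutaminase Tgm2 fell by 0.89. Crabp2 rose, as given above. None of these groups overlapped.

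Of 20 genes known to be induced by glucocorticoids 5 fell and 1 rose, with a median of -0.25. Zbtb16, a zinc finger repressor, stood at 1.00 and 1.78 in mock and at -0.89 and -0.53 with tamoxifen. Tsc22d3, a leucine zipper protein, stood at 4.07 and 5.04 in mock and at 2.25 and 2.67 with tamoxifen. The chaperone Fkbp5 fell by 0.93, the kinase Sgk1 by 0.93 and Pdk4 by 1.74, and Ddit4 rose by 0.75. Nr3c1, the receptor itself, fell by 0.52. Of 13 sodium pump genes Atp1b1 and Nkain4 fell and none rose.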
